A study of Mus musculus with 16 samples.

Results

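The sarcomere and Z-disc genes described here were 35 genes, picked by symbol from a list that left out myosins and actins, and all 35 were found among the 48709 gene identifiers of the count table. They comprised titin, 4 genes of the thick filament and M-band, 10 of the thin filament, 12 of the Z-disc, 5 of the costamere and intercalated disc, and 3 signalling and energy genes. The study compared quadruple knockout mice (QKO), knocked out for the known methionine sulfoxide reductases (the Msr genes Msra, Msrb1, Msrb2 and Msrb3), with wild type mice (WT). The groups were QKO heart, WT heart, QKO liver and WT liver, 4 libraries each, from 8 untreated female C57BL/6J mice aged 3 to 6 months, and heart and liver came from the same animals. Total RNA of whole tissue was depleted of ribosomal RNA before sequencing, and the labels give no tissue-specific deletion and no pooling of animals. In such bulk samples fewer cells of a type and less RNA per cell cannot be told apart.

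Striated muscle contracts in sarcomeres, where myosin thick filaments slide along actin thin filaments. Thin filaments are anchored at the Z-disc, thick filaments are cross-linked at the M-band, and titin spans from one to the other as a spring. The troponin complex and tropomyosin set whether myosin can bind actin when calcium rises, and the costamere and intercalated disc tie the outermost sarcomeres to the membrane and to the next cell. The reductases knocked out here repair protein methionine that has been oxidised.

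Each library held 37.9 to 72.6 M counts, and 9.21 to 28.2 M (heart) or 21.6 to 40.7 M (liver) fell on protein-coding genes. In 6 heart libraries 31.4% to 56.9% of all reads counted fell on ribosomal RNA loci, whereas QKO heart 4 had 0.245% and WT heart 4 had 7.37%. Msrb2 averaged 0.118 CPM (counts per 1 M counts, on scaled library sizes) in QKO heart and 9.48 CPM in WT heart, and Msrb3 averaged 5.76 and 35.4 CPM. Msra was also lower in QKO heart, at 5.24 CPM against 7.56 CPM in WT heart, whereas Msrb1 was higher, at 15.4 CPM against 11.1 CPM. These were the genes' total counts, and the targeted exons were not counted apart. Cardiomyocyte markers outside the 35 genes summed to 49838 to 58340 per 1 M protein-coding counts in QKO heart, to 39804 to 50898 in WT heart and to at most 100 in liver.

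The promoter windows of 4 members are printed because most members were higher in heart than in liver, as given further on, and these windows hold motifs bound in muscle genes. RefSeq windows (GRCm38.p6) from 250 bases before to 50 bases after a gene's start were found for 31 of the 35 members. Motifs were searched on both strands and are in capitals. The MEF2 motif is bound by myocyte enhancer factors and the CArG box by serum response factor, and each was searched in its standard consensus form. CATTCC is bound by TEAD factors and CAGCTG is an E-box. A CArG box and a MEF2 motif cannot start at the same base, and no other overlap was screened for.
Ttn chr2:76982498-76982797, minus strand, MEF2 motif and CATTCC in capitals: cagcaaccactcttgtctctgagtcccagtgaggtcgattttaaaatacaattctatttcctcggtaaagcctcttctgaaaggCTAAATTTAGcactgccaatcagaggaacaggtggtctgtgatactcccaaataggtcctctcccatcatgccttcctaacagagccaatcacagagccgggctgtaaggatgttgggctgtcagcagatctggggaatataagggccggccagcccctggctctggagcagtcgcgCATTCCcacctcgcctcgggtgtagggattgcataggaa
Myoz2 chr3:123034938-123035237, minus strand, MEF2 motif and CAGCTG in capitals: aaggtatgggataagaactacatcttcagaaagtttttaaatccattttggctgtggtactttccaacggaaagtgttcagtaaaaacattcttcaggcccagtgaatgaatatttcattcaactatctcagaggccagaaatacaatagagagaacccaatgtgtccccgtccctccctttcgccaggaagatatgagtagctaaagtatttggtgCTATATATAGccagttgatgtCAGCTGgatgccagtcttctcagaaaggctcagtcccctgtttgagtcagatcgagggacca
Ldb3 chr14:34588632-34588931, minus strand, CArG box in capitals: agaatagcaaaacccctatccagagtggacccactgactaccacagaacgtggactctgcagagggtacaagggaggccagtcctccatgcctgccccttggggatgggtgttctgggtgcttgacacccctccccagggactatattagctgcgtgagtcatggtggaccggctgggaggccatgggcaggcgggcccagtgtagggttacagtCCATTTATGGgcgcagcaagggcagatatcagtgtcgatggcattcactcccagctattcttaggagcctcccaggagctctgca
Vcl chr14:20929148-20929447, plus strand, CArG box and CATTCC (as its reverse complement) in capitals: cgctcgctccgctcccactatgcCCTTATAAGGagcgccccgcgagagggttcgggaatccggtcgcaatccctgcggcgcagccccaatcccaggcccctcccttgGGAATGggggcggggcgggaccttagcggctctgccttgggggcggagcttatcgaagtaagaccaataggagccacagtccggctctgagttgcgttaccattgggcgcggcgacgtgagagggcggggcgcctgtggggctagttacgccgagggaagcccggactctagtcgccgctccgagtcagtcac

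The MEF2 motif of Ttn lay 166 to 157 bases before the start, and that of Myoz2 33 to 24 bases before it. The CArG box of Ldb3 lay 35 to 26 bases before the start and that of Vcl 227 to 218 bases before it. Among the 31 members with a window, 6 held a MEF2 motif (19.4%), against 3.70% of 27025 genes. A CArG box was present for 4 members, Ldb3, Myom1, Nebl and Vcl (12.9%, against 1.81% of genes). CATTCC was present for 9 members (29.0%, against 16.6%) and CAGCTG for 13 (41.9%, against 18.3%). A match says only that the letters were present, and binding was not measured.

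Levels between genes were compared per length, as the count per exon length scaled to a fixed sum over protein-coding genes (TPM). Exon length was the union of a gene's annotated exons, which can exceed the length of a transcript. It was 7752 bp for Tnnt2 and 2204 bp for Tnnt1, and order and shares per length depend on it. Together the 35 genes took 9.65%, 10.9%, 11.3% and 12% of the protein-coding count in QKO hearts 1 to 4, against 10.5%, 9.81%, 9.26% and 10.9% in WT hearts 1 to 4, and the groups overlapped. Ttn alone took 6.58% to 7.98% in QKO heart and 6.32% to 7.45% in WT heart. Per length Tnni3, the cardiac inhibitory troponin subunit, was the highest member in both groups, at 5981 ± 345 TPM in QKO heart and 5339 ± 360 TPM in WT heart (SD, n = 4 each), and it did not overlap the next member in either group. It was followed by Tnnc1, the calcium-binding troponin subunit, at 3989 TPM in QKO heart and 3483 TPM in WT heart, and by Ckmt2, the mitochondrial creatine kinase, at 3875 and 3520 TPM, and these overlapped each other in both groups. Ttn ranked eighth in QKO heart, at 2131 ± 107 TPM, against 2004 TPM in WT heart, with its count spread over an exon length of 116825 bp. The lowest members were Myom3, at 1.23 TPM in QKO heart and 0.821 in WT heart, and Tnni1, the slow skeletal troponin I, at 0.308 and 0.168 TPM. Levels thus ran over more than 4 orders of magnitude within the list, while the difference between genotypes was small beside them, as the plot of levels by library shows.

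**Figure D1:**
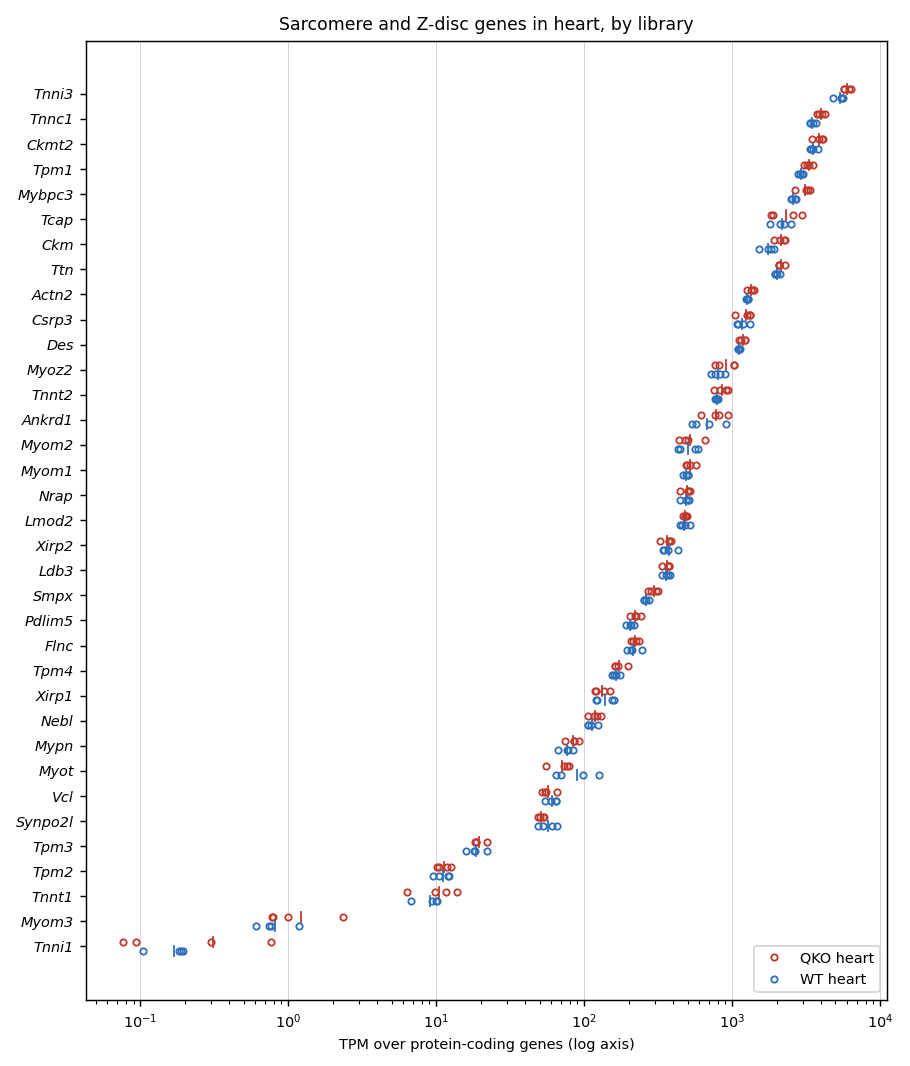
TPM over protein-coding genes (log axis) of each of the 35 members in the 4 QKO heart libraries (red) and the 4 WT heart libraries (blue), circles for libraries and short bars for group means, ordered by the QKO mean. The members run from Tnni3 at 5981 TPM in QKO heart down to Tnni1 at 0.308 TPM, and both genotypes lie close together for most of them.

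The comparison of QKO heart with WT heart asks whether loss of the reductases changed the RNA of the contractile apparatus. In edgeR's quasi-likelihood test with Benjamini-Hochberg adjustment, 0 of the 34 members tested passed an adjusted p of 0.05, where 0.165% of the 16974 genes tested did. Tnni1 was too low to be tested. At an unadjusted p under 0.05 there were 2 members, Ckm and Mybpc3, where 7.19% of all genes were, and DESeq2 called 0 members as well. The median log2 change of QKO over WT was 0.061 over the members and -0.001 over all genes, and 25 of 34 members lay above 0, against 49.6% of all genes. The CPM of QKO and WT hearts overlapped for all 34 members, while they did not overlap for 4.67% of all genes. In TPM, 4 members were higher in every QKO heart than in every WT heart: Tnni3, Tnnc1, Tpm1 and Ckm. The reverse held for 0 members. Of 13451 protein-coding genes tested, 277 (2.06%) were higher in this way and 174 were lower. Length cancels within a gene, so these separations came with the move from CPM to TPM scaling. That move raised the log2 ratio of QKO over WT by a median of 0.03 for the members and 0.02 for all protein-coding genes tested. The 95% interval of the tested QKO over WT change lay within 0.5 on the log2 scale, a 1.41-fold change, for 30 of the 34 members. The exceptions were Ankrd1, Myom3, Myot and Tnnt1. The interval lay within 0.3, a 1.23-fold change, for 19. Cardiomyocyte markers outside the list moved with it: 8 of 8 lay above 0, with a median of 0.102. Of these markers 3 (37.5%) had an unadjusted p under 0.05, against 7.19% of all genes, and 0 were called. Their part in the members' values was not tested. Hepatocyte markers, 8 genes with none at 0, summed to 235 to 483 per 1 M protein-coding counts in QKO heart and to 188 to 992 in WT heart. Skeletal muscle fibre markers summed to 19.6 to 30.6 in QKO heart and to 19.2 to 34.5 in WT heart. By log2 change of QKO over WT, 0 of 8 hepatocyte markers lay above 0, with a median of -0.699. Of fibroblast markers 1 of 7 lay above 0 (median -0.127), and of endothelial markers 4 of 6 (median 0.114). None of these markers was called, and their part in the members' values was not tested either. Without both hearts of replicate number 4, the libraries lowest in ribosomal RNA, 22 of 34 members lay above 0 and the median was 0.03.

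Ckm (chr7:19404776-19422841, GRCm38, plus strand), the cytosolic muscle creatine kinase that regenerates ATP near the myofibril, had 425, 474, 471 and 510 CPM in QKO hearts 1 to 4, against 390, 427, 348 and 399 CPM in WT hearts. All QKO hearts but QKO heart 1 lay above every WT heart. Its log2 change was 0.27 (SE 0.09), with an adjusted p of 0.617, the smallest among the members. The smallest adjusted p over 16 alternative analyses was 0.123, from DESeq2. Ckm shares 451 bp of exon with A930016O22Rik on the opposite strand, which had 192 ± 19.1 CPM in QKO heart and 157 ± 20.5 CPM in WT heart (SD, n = 4 each), and whether counting used strand is not stated.

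Mybpc3 (chr2:91118144-91136516, plus strand), cardiac myosin binding protein C, which sits on the thick filament and modulates cross-bridges, had 839, 1005, 993 and 1067 CPM in QKO hearts, against 859, 893, 830 and 745 CPM in WT hearts. QKO heart 1 lay within the WT range and the other QKO hearts above it. The log2 change was 0.23 (SE 0.10, adjusted p 0.672). Myom1, Myom2 and Myom3 encode the M-band myomesins. Myom1 averaged 409 ± 20.8 CPM in QKO heart and 395 ± 35.7 CPM in WT heart, and Myom2 347 ± 51.2 and 346 ± 65.8 CPM (SD, n = 4 each). Myom2 made up 49.9% of myomesin RNA per length in QKO heart and 50.5% in WT heart. Myom3 had 1.07, 0.464, 0.332 and 0.371 CPM in QKO hearts, against 0.279, 0.575, 0.363 and 0.317 CPM in WT hearts. Its high value was QKO heart 1 alone, and its log2 change of 0.54, the highest among the members, had an interval from -0.31 to 1.40.

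The titin gene Ttn lies at chr2:76703980-76982547 on the minus strand. It had 18268, 18755, 19079 and 18959 CPM in QKO hearts, against 18897, 18407, 17904 and 16700 CPM in WT hearts. WT heart 4 was the lowest, and the groups overlapped. The log2 change was 0.06 (SE 0.12), with an interval from -0.21 to 0.33.

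**Figure D2:**
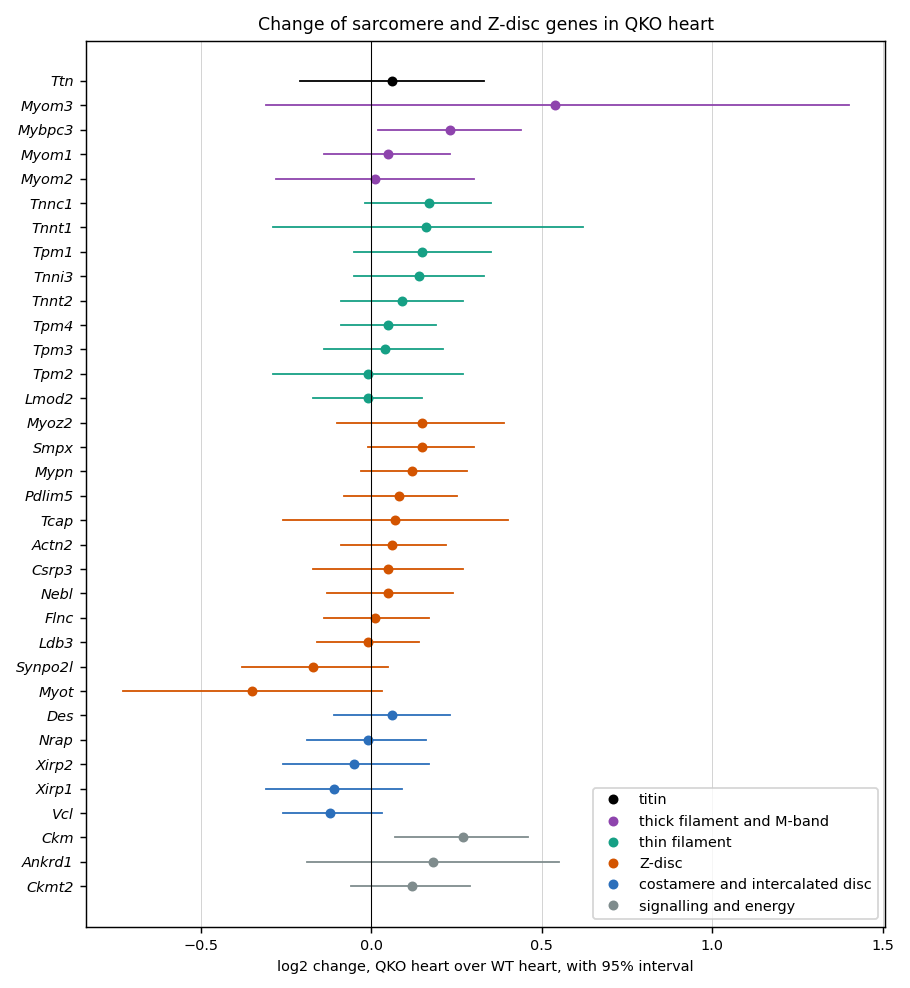
Log2 change in QKO heart over WT heart (x axis) with its 95% interval for the 34 members tested, grouped and coloured by role. All but Ckm and Mybpc3 have an interval that includes 0, and 30 intervals lie within 0.5 of 0.

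Within the troponin and tropomyosin families the adult cardiac forms made up most of the RNA in both genotypes. Tnnt2, cardiac troponin T, which holds the troponin complex on tropomyosin, had 530, 494, 518 and 454 CPM in QKO hearts, against 463, 481, 491 and 437 CPM in WT hearts. Tnni3 had 887, 901, 912 and 1024 CPM in QKO hearts, against 862, 914, 781 and 824 CPM in WT hearts. Tnnc1 had 296, 310, 303 and 345 CPM in QKO hearts, against 281, 310, 274 and 250 CPM in WT hearts. These 3 cardiac subunits had log2 changes of 0.09 (SE 0.08), 0.14 (SE 0.09) and 0.17 (SE 0.09), and none passed the test. Tnni3 shares 86 bp of exon with Dnaaf3 on the same strand.

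The slow skeletal troponins were scarce in heart. Tnnt1 had 2.30, 1.08, 1.83 and 1.70 CPM in QKO hearts, against 1.59, 1.81, 1.17 and 1.58 CPM in WT hearts, and made up 1.20% of Tnnt1 and Tnnt2 RNA per length in QKO heart and 1.14% in WT heart. Tnni1, the form of the fetal heart, had 1, 10, 1 and 10 reads in QKO hearts, against 3, 1, 2 and 6 reads in WT hearts. It made up 0.00525% of Tnni1 and Tnni3 RNA per length in QKO heart and 0.00316% in WT heart, and at 1 to 10 reads no difference was detectable.

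Tpm1, the main cardiac tropomyosin, had 1577, 1531, 1635 and 1692 CPM in QKO hearts, against 1497, 1553, 1428 and 1329 CPM in WT hearts. It made up 94.2% ± 0.264 of tropomyosin RNA per length in QKO heart and 93.8% ± 0.385 in WT heart (SD, n = 4 each). Tpm4, a mostly non-muscle form, had 26.8, 27.2, 31.1 and 29.2 CPM in QKO hearts, against 27, 28.9, 26.8 and 27.7 CPM in WT hearts, and was the next form, at 4.92% and 5.26% of tropomyosin RNA. Tpm3, used in slow muscle and in non-muscle cells, had 8.60, 8.58, 9.62 and 8.91 CPM in QKO hearts, against 8.59, 7.77, 8.68 and 9.57 CPM in WT hearts. Tpm2 had 2.60, 2.32, 2.60 and 2.33 CPM in QKO hearts, against 2.75, 2.24, 2.75 and 2.18 CPM in WT hearts. Tpm3 and Tpm2 made up 0.557% and 0.322% of tropomyosin RNA in QKO heart, against 0.600% and 0.358% in WT heart. Lmod2, leiomodin 2, which nucleates and lengthens thin filaments in heart, averaged 71.6 ± 1.25 CPM in QKO heart and 72.1 ± 7.47 CPM in WT heart (SD, n = 4 each). Its log2 change was -0.01.

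Of the 12 Z-disc members, 9 had a log2 change above 0 in heart and 0 were called, with changes from -0.35 to 0.15. Actn2, the actinin that cross-links thin filaments at the Z-disc, averaged 386 ± 13 CPM in QKO heart and 370 ± 14.6 CPM in WT heart (SD, n = 4 each). Csrp3, muscle LIM protein, averaged 250 ± 28.2 and 241 ± 30.2 CPM, and Tcap, telethonin, which caps the titin end at the Z-disc, averaged 166 ± 41.2 and 158 ± 22.9 CPM. The lowest change was that of Myot, myotilin, an actinin-binding cross-linker. Myot had 9.29, 12.5, 12 and 13.6 CPM in QKO hearts, against 10.9, 12.4, 22 and 15.6 CPM in WT hearts. WT heart 3 lay far above the other hearts. The log2 change was -0.35 (SE 0.18), with an interval from -0.73 to 0.03, and over 16 alternatives it ran from -0.48 to -0.13. Synpo2l, an actin-associated protein of the Z-disc, had 17.6, 19.2, 17.4 and 17.7 CPM in QKO hearts, against 17.3, 24.3, 22 and 17.4 CPM in WT hearts. WT hearts 2 and 3 were high and WT hearts 1 and 4 matched the QKO hearts, and the log2 change was -0.17 (SE 0.10).

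The other Z-disc members changed by less. Ldb3, a PDZ and LIM protein that binds actinin, averaged 167 ± 8.26 CPM in QKO heart and 168 ± 8 CPM in WT heart, and Flnc, the muscle filamin, 157 ± 6.81 and 155 ± 10.7 CPM (SD, n = 4 each). Nebl, the cardiac relative of nebulin, averaged 137 ± 10.8 CPM in QKO heart and 132 ± 13 CPM in WT heart. Myoz2, calsarcin 1, which ties calcineurin to the Z-disc, averaged 235 ± 34.9 CPM in QKO heart and 212 ± 27.4 CPM in WT heart. Mypn, myopalladin, which binds nebulin-family proteins and actinin, averaged 37.0 ± 2.92 CPM in QKO heart and 34.1 ± 2.03 CPM in WT heart. Pdlim5, which brings kinases to actinin, averaged 148 ± 8.29 and 140 ± 11.6 CPM, and the small muscle protein Smpx 50.5 ± 3.49 and 45.6 ± 3.12 CPM (SD, n = 4 each). Their log2 changes were 0.12, 0.08 and 0.15, and none passed the test.

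At the costamere and intercalated disc, 1 of 5 members lay above 0. Vcl, vinculin, which links actin to adhesion complexes, had 33.6, 32.9, 38.3 and 35.1 CPM in QKO hearts, against 40.4, 35.7, 38.6 and 37.4 CPM in WT hearts. QKO heart 3 lay within the WT range and the others below it, and the log2 change was -0.12 (SE 0.07). Vcl shares 2090 bp of exon with Ap3m1 on the opposite strand, which had 17.3 CPM in QKO heart and 18.2 CPM in WT heart. Des, desmin, the intermediate filament that ties Z-discs together, averaged 334 ± 19.4 CPM in QKO heart and 320 ± 18.0 CPM in WT heart (SD, n = 4 each). Nrap, Xirp1 and Xirp2 are actin-binding proteins of the intercalated disc. Nrap averaged 205 ± 13.8 CPM in QKO heart and 207 ± 18.5 CPM in WT heart, Xirp1 57.7 ± 5.19 and 62.2 ± 8.15 CPM, and Xirp2 331 ± 25.8 and 342 ± 45.6 CPM (SD, n = 4 each). Their log2 changes were -0.01, -0.11 and -0.05. Ankrd1, a stretch-responsive ankyrin repeat protein that binds titin, had 134, 208, 167 and 174 CPM in QKO hearts, against 126, 162, 206 and 109 CPM in WT hearts. Its spread was wide in both groups, and its log2 change of 0.18 had an interval from -0.19 to 0.55. Ckmt2 averaged 435 ± 37.0 CPM in QKO heart and 401 ± 5.71 CPM in WT heart (SD, n = 4 each).

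In heart the members varied little between animals. Their median coefficient of variation was 6.91% in QKO heart, where it was 13.2% over all genes tested, and 8.68% in WT heart, where it was 13%. Genes with high counts vary less by counting alone, and the members were not compared with genes of equal counts. Lmod2 had the lowest coefficient in QKO heart, 1.75%, and Ckmt2 the lowest in WT heart, 1.42%. In liver the members varied more than other genes. Their median coefficient was 37.4% in QKO liver, where it was 19.3% over all genes tested, and 95.7% in WT liver, where it was 20.8%.

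A further 43 genes of the sarcomere and Z-disc were examined as a list, of which 33 could be tested in heart and 0 were called. At an unadjusted p under 0.05 there were 5 of 33 (15.2%), where 7.19% of all genes were. The median log2 change was 0.030 and 19 of 33 lay above 0. Neb, nebulin, the thin filament ruler of skeletal muscle, had 12, 19.7, 9.70 and 11.5 CPM in QKO hearts, against 8.43, 8.29, 4.56 and 6.36 CPM in WT hearts. All QKO hearts lay above all WT hearts, with a log2 change of 0.93 (SE 0.21) and an adjusted p of 0.195. The groups did not overlap, in either direction, for 4.67% of all genes tested. Neb was not confined to heart, with a mean of 18.0 CPM in QKO liver and 22.1 CPM in WT liver. Pdlim3 had a log2 change of 0.41 and Fhl2, a titin-binding LIM protein, one of 0.24, with 474 ± 36.8 CPM in QKO heart and 402 ± 39.1 CPM in WT heart (SD, n = 4 each). The lowest change of the list was that of Lmod1, at -0.79 (SE 0.49), with a mean of 0.206 CPM in QKO heart and 0.371 CPM in WT heart. Among genes with a mean of 1 CPM or more the lowest were Mybpc2 and Cmya5, both at -0.22, and Lmod3 at -0.18. Cmya5 had 413, 436, 328 and 388 CPM in QKO hearts, against 472, 472, 440 and 439 CPM in WT hearts, and every QKO heart lay below every WT heart.

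The comparison of WT heart with WT liver gave the tissue contrast of the same genes. In edgeR's quasi-likelihood test, 32 of 34 members passed an adjusted p of 0.05, where 72.5% of 18204 genes did. Of these, 30 were higher in heart, where 35.6% of all genes were, and 2 were lower, where 36.9% were. The Z-disc members Mypn, Myot, Tcap, Synpo2l and Smpx were not among the 29 members tested in liver, as given further on. They had 4 to 21 reads summed over WT livers 1 to 3 and entered this fit through their heart counts. Their higher value in heart thus followed from the filter and is no separate support. The median log2 difference of heart minus liver was 6.90 over the members and -0.025 over all genes. With all libraries Tnni3 had the largest difference, 10.38 (SE 0.51), and Mybpc3 followed at 10.07 (SE 0.56). All 12 Z-disc members were higher in heart, by 2.30 for Pdlim5 to 8.58 for Ldb3. These sizes and their order depended on WT liver 4, a library described further on, and some sizes on pairing by animal. With the animal as a block and all libraries, Ckm was higher in heart by 9.90 in place of 5.55 and Tcap by 9.33 in place of 5.75. Tnni3 still had the largest difference there, 10.53. Without WT liver 4 and without the block, Ckm had the largest difference, 11.30. It was followed by Tcap at 11.20 and Myoz2 at 11.09 in place of 8.2, and Tnni3 had 10.86 and Mybpc3 10.49. The Z-disc members were then higher in heart by 2.26 for Pdlim5 to 11.20 for Tcap, and Myot was higher by 10.08 in place of 4.33.

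The exceptions were tropomyosins and 2 low genes. Tpm3 (chr3:90072649-90100902, plus strand) was lower in heart, at 18.4, 15.9, 18.1 and 22.1 TPM in WT hearts, against 30.0, 33.2, 29.3 and 28.4 TPM in WT livers, a log2 difference of -1.29 (SE 0.12, adjusted p 2.226e-06). Every WT heart lay below every WT liver. Tpm2 had 12.3, 9.55, 12 and 10.5 TPM in WT hearts, against 6.05, 10.5, 10.5 and 61.7 TPM in WT livers. Its lower value in heart, a log2 difference of -1.55 (adjusted p 0.0410), rested on WT liver 4. Without that library the difference was -0.30 (adjusted p 0.182), and with the animal as a block it was -0.95 (adjusted p 0.131). It also missed the threshold when any 1 of the WT hearts was left out, with a difference of -1.60 to -1.49 (adjusted p 0.0708 to 0.0864). Tnnt1 and Myom3 were not called with all libraries (1.18 and 0.34, adjusted p 0.0578 and 0.750). Without WT liver 4 both were higher in heart, by 2.17 (adjusted p 7.544e-06) and 2.56 (adjusted p 0.00195). With the animal as a block and all libraries, Tnnt1 was higher in heart by 1.5 (adjusted p 0.0119) and Myom3 was not called (1.29, adjusted p 0.246).

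The members with the highest level in liver relative to heart were 7, as WT livers 1 to 3 had 166% of the WT heart TPM for Tpm3, 81.2% for Tpm2, 30.2% for Tpm4, 21.1% for Vcl, 14.8% for Tnnt1, 13.8% for Pdlim5 and 12% for Myom3. Tnnt1 and Myom3 were low in both tissues, at 9.09 and 0.821 TPM in WT heart. Csrp3 was an intermediate case at 1.59%, with 16, 24.7 and 15.3 TPM in WT livers 1 to 3, above most other Z-disc genes there. At the other end, 27 of 35 members had less than 1% of the heart level in WT livers 1 to 3 and 18 had less than 0.1%. Both counts include Tnni1, which had 0 reads in those livers but at most 6 in a WT heart, too few to place it. Nrap, at 0.698%, overlaps by 268 bp the opposite-strand gene Habp2, which had 97.2 CPM in WT liver. Vcl, at 21.1%, shares 2090 bp of exon with the opposite-strand gene Ap3m1. In WT liver Ap3m1 had 58.4 CPM and Vcl 20.8 CPM, and in QKO liver 52.0 and 18.2 CPM. Whether reads of these neighbours entered the liver values was not tested.

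**Figure D3:**
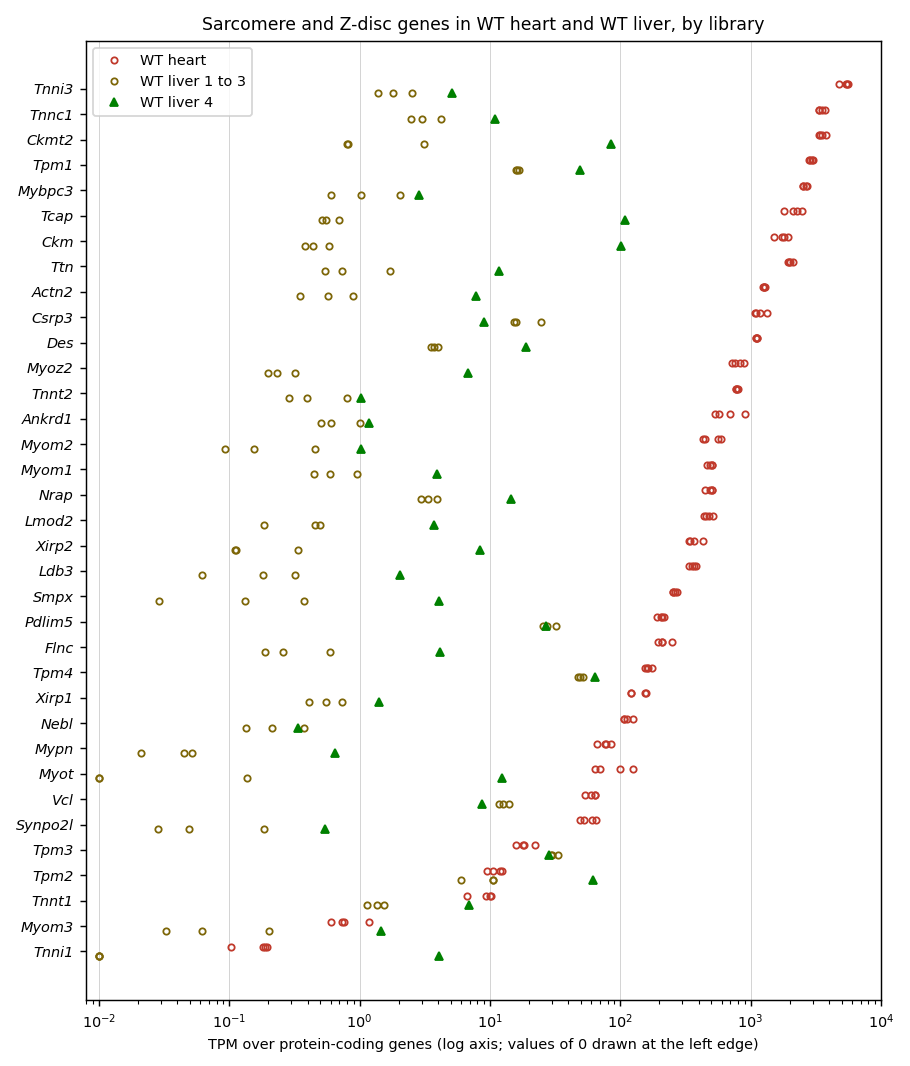
TPM over protein-coding genes (log axis) of each member in the WT heart libraries (red circles), WT livers 1 to 3 (brown circles) and WT liver 4 (green triangles), with values of 0 drawn at 0.01. Most members lie far to the right in heart, Tpm3 lies to the left of liver in all 4 hearts, and WT liver 4 lies to the right of the other livers for most members.

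WT liver 4 stood apart from the other WT livers. It exceeded the mean of WT livers 1 to 3 by over 2-fold for 27 of the 34 members with reads there, by over 10-fold for 13 and by over 50-fold for 4, namely Myot, Ckm, Tcap and Ckmt2. Tnni1 had 146 reads in WT liver 4 and 0 reads in each of WT livers 1 to 3. Markers of skeletal muscle fibres, 13 genes with none at 0 in that library, summed to 429 per 1 M protein-coding counts in WT liver 4 and to 1.30, 1.38 and 2.23 in WT livers 1 to 3. In QKO livers 1 to 4 the sum was 5.89, 34.1, 1.71 and 2.32. Adipocyte markers (4 genes) summed to 39.0 in WT liver 4, to 2.50 to 8.34 in WT livers 1 to 3 and to 4.00 to 5.04 in QKO livers. Pancreatic acinar markers (6 genes) summed to 6.37 to 12.1 in QKO livers. In WT livers 1 to 4 their sum was 7.6, 7.33, 1066 and 320. The part of these markers in the members' values was not tested beyond leaving out WT liver 4, or WT livers 3 and 4.

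In liver, QKO against WT, 0 of 29 members tested passed an adjusted p of 0.05, where 0.0846% of 17738 genes did. With an unadjusted p under 0.05 there were 3 members (Flnc, Xirp2 and Ckmt2), where 3.29% of all genes were, and DESeq2 called 0 of the 22 members it gave an adjusted p. The median log2 change was -0.81 over the members and -0.006 over all genes, with 5 of 29 above 0. Without WT liver 4 the median was 0.19 and 21 of 29 lay above 0, so its direction turned with 1 library. Without WT livers 3 and 4 the median was 0.11 and 19 of 30 members tested lay above 0. Without QKO liver 2, the QKO library with the most skeletal fibre RNA, and with WT liver 4 kept, the median was -0.82. The fits without WT liver 4 kept QKO liver 2, and leaving out both was not tested. Without WT liver 4 alone, Ckm had a log2 change of 2.54. In edgeR's test Ckm and Myoz2 then had an unadjusted p under 0.05, and the smallest adjusted p was 0.710. QKO and WT livers overlapped for all 29 members, while they did not overlap for 2.11% of all genes.

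The 3 members with the smallest p had the same pattern. Flnc had 0.391, 1.23, 0.402 and 0.495 CPM in QKO livers, against 0.558, 0.402, 1.11 and 8.22 CPM in WT livers. Xirp2 had 0.594, 1.21, 0.376 and 1.34 CPM in QKO livers, against 0.921, 0.298, 0.269 and 21.4 CPM in WT livers. Ckmt2 had 0.328, 2.09, 0.349 and 0.942 CPM in QKO livers, against 1.06, 0.268, 0.239 and 26.7 CPM in WT livers. In each, WT liver 4 was the highest library and the other WT livers lay at 1.11 CPM or below. Their log2 changes were -2.01 (SE 0.86), -2.67 (SE 1.19) and -2.90 (SE 1.31), each with an adjusted p of 1.000. Over the alternatives, which include leaving out WT liver 4, they ran from -2.56 to 0.42, from -3.07 to 0.91 and from -3.67 to 0.92.

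Pdlim5, Tpm3, Vcl and Csrp3 had reads in every liver and were not high in WT liver 4, whereas Ttn was. Ttn had 25.0, 46.7, 29.0 and 45.9 CPM in QKO livers, against 45.9, 14.3, 16.9 and 289 CPM in WT livers, with a log2 change of -1.32 (SE 0.79) that ran from -1.68 to 0.52 over the alternatives. Of the WT livers, WT liver 4 alone lay above the QKO range of Ttn. Pdlim5 had 52.5, 52.0, 45.8 and 64.6 CPM in QKO livers, against 52.0, 54.7, 57.2 and 51.0 CPM in WT livers. Tpm3 had 49.1, 39.0, 35.4 and 34.3 CPM in QKO livers, against 42.0, 45.6, 35.5 and 36.6 CPM in WT livers. Vcl had 20.4, 22.1, 13.5 and 16.8 CPM in QKO livers, against 22, 23.4, 22.8 and 15.2 CPM in WT livers. QKO and WT livers overlapped in Pdlim5, Tpm3 and Vcl, and their log2 changes were 0.00 (SE 0.13), -0.02 (SE 0.15) and -0.20 (SE 0.18). Csrp3 had 18.5, 10.9, 12.2 and 8.54 CPM in QKO livers, against 9.85, 14.9, 8.16 and 5.12 CPM in WT livers, with a log2 change of 0.40 (SE 0.31). WT liver 4 was the lowest library for Csrp3 within WT, the reverse of its place for the muscle genes.

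**Figure D4:**
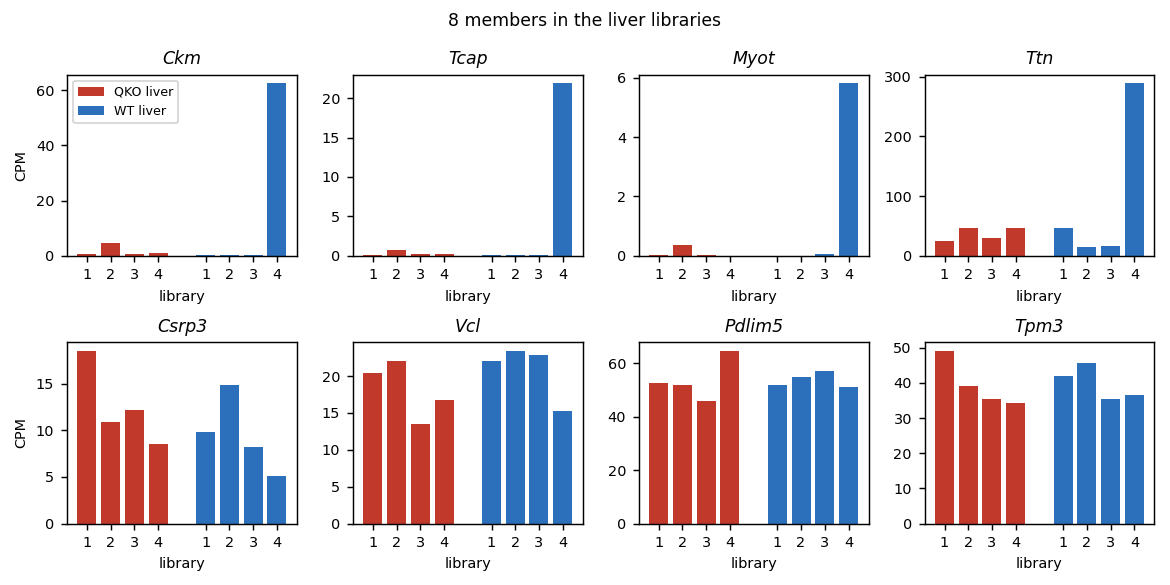
CPM of 8 members in QKO livers 1 to 4 (red) and WT livers 1 to 4 (blue), bars for single libraries and axes starting at 0. In the upper row WT liver 4 carries most of the signal, for example 62.5 CPM of Ckm and 289 CPM of Ttn, while in the lower row the libraries of both genotypes lie in 1 range.

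The QKO effect in heart minus the QKO effect in liver was tested as an interaction over 16 libraries. Of 34 members, 0 passed an adjusted p of 0.05, where 0.00511% of 19587 genes did. The members with an unadjusted p under 0.05 were 4 (Tcap, Smpx, Flnc and Ckmt2), where 4.00% of all genes were, and DESeq2 called 0 of the 21 members it gave an adjusted p. Tcap and Smpx, like Myot, Mypn and Synpo2l, were not among the 29 members tested in liver and entered this fit through their heart counts. In WT livers 1 to 3 Tcap had 21 reads in sum and Smpx 12. The median difference was 0.96 and 32 of 34 lay above 0, which WT liver 4 enters through the liver term. Effects in the 2 tissues were thus not shown to differ.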

How the data were processed

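RNA was measured in heart and liver of 8 mice, 4 per genotype, in 16 libraries. The authors deposited whole-number read counts per gene for 48709 Ensembl identifiers. Per the labels' protocols, stranded libraries were built from total RNA after removal of ribosomal RNA and read as 75 bp pairs, about 75 M per sample. The submitters' processing notes name HISAT2, featureCounts, cutadapt, FastQC, limma, CASAVA and bcl2fastq with build mm10, and versions, annotation release and strand setting are not given in the sources used here. Symbols and exon lengths came from GENCODE M21 (GRCm38), which held 48349 of the identifiers, and 360 did not match.

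CPM used TMM-scaled library sizes within each tissue. TPM was computed over protein-coding genes and union exon length, in place of the planned denominator of all annotated genes, because ribosomal RNA loci filled part of some heart libraries. That choice was made after seeing the data. Each comparison was fitted on the whole table with edgeR 4.0.16 (R 4.3.3): expression filter by group, quasi-likelihood test, Benjamini-Hochberg adjustment over all genes tested and a threshold of 0.05. The SE is the size of the log2 change divided by the square root of F, and intervals are 95%. QKO against WT was fitted within each tissue, WT heart against WT liver on the WT libraries, and the interaction on all 16. The fits were also run on simulated counts, with the same dispersion for every gene and the same base mean in all groups. Those counts held no outlier library, so they do not show how the fits behave with WT liver 4. Replicates are separate animals. The WT tissues share animals, and the block by animal is given where it changed a call and for some of the tissue differences. Of the 24 replicate pairs within groups none was a copy.

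The replicate numbers are not stated to pair QKO with WT. Correlations of same-numbered libraries were 0.0807, 0.0945, 0.00525 and 0.331 in heart and 0.0460, -0.0507, -0.0687 and 0.121 in liver. The highest was that of the hearts numbered 4, which were also the hearts lowest in ribosomal RNA (0.245% in QKO and 7.37% in WT). What these hearts shared was not tested. Alternatives were DESeq2 1.42.0, other scaling, no filter, protein-coding genes only, 1 fit of all libraries, the animal number series as a term, the replicate block and each library left out. All members are named. Values in every library are given for members with an unadjusted p under 0.05 between genotypes, for the 3 largest rises and falls in heart, and for troponins and tropomyosins, and other genes given by library were added after their values were seen. The members and lists were chosen with earlier results of these data known. Protein sequences were not used here.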

Additional observations from a re-analysis of the deposited data

Results flagged for a closer look

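A library was singled out where its gap to the nearest of the other 3 in its group, over the group's range, passed Dixon's 95% critical value for 4 samples. Of 140 groups tested over the 35 members, 31 were, or 22.1%, where chance gives about 1 in 20 for normally distributed values. The CPM need not follow that rate, as some rest on few reads. The tests covered the members only, so no share over all genes stands beside the 22.1%. The flags of different genes are not independent, since 21 of them were in WT liver 4.

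In WT liver 4 the high values, in CPM, were 289 for Ttn, 67.1 for Tpm1, 62.5 for Ckm, 38 for Tpm2, 26.7 for Ckmt2, 21.9 for Tcap, 21.4 for Xirp2, 17 for Nrap and 15 for Des. Lower but still set apart were Flnc at 8.22 CPM, Actn2 at 6.27, Myot at 5.82, Myoz2 at 4.96, Tnnt1 at 3.22, Tnni1 at 3.09, Ldb3 at 2.65, Smpx at 1.97, Myom3 at 1.88, Lmod2 at 1.57 and Mypn at 0.805. Tcap in the other 3 WT livers lay between 0.105 and 0.149 CPM, and Des between 2.96 and 3.14 CPM. Vcl went the other way, at 15.2 CPM in WT liver 4 against 22 to 23.4 CPM in the other WT livers.

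In QKO liver 2, Tpm2 had 12.9 CPM, Ckm 4.53, Flnc 1.23 and Myot 0.365, each above the other QKO livers. In QKO liver 4, Ankrd1 had 0.958 CPM, above 0.360 to 0.399 in the others.

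In heart, QKO heart 1 was low for Mypn, at 32.7 CPM, and for Pdlim5, at 136 CPM against 152 to 153 in the other QKO hearts. WT heart 2 was high for Csrp3, at 286 CPM against 224 to 228, and low for Tnni1, at 0.0302 CPM from 1 read. WT heart 4 was low for Smpx, at 41.0 CPM against 46.8 to 47.7.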

How the results depend on the processing

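Between genotypes, 0 members were called under any alternative in heart (adjusted p 0.123 to 1.00 over 16 alternatives), in liver (0.493 to 1.00) or in the interaction (0.533 to 1.00). Signs of uncalled changes turned in 30 of 544 values in heart, 59 of 457 in liver and 67 of 769 in the interaction. The count of all genes called in heart was 28, and it was 64 with DESeq2, 16 with all 16 libraries in 1 fit, 102 with no filter on low counts, 50 with the replicate block, and 18 to 25 with 1 library left out. In liver it was 15, and it was 50 with DESeq2, 44 with all 16 libraries in 1 fit, 9 with protein-coding genes only, 16 with the replicate block and 12 to 19 with 1 library left out. For the interaction it was 1, and it was 13 with DESeq2, 2 with no filter, 0 with the animal as a block (chosen after seeing the data), 1 with the replicate block, 1 to 3 with 1 library left out and 5 without WT livers 3 and 4. Between tissues, DESeq2 called all 18 members it gave an adjusted p, against 32 of 34. There 0 members reversed, and 7 values lost and 7 gained their call, all of Tpm2, Tnnt1 or Myom3. Tpm2 lost its call without any 1 of the WT hearts (-1.60 to -1.49, adjusted p 0.0708 to 0.0864) as well as without WT liver 4. The block by animal changed no other call of a member. On counts not scaled by length, Tnni1 made up 0.00552% of its pair in WT heart, Tnnt1 0.344% and 0.328% of its pair in QKO and WT heart, and of the tropomyosins Tpm1 97.6% and 97.4%, Tpm2 0.150% and 0.167%, and Tpm4 1.73% and 1.86%. The cause of these differences between alternatives was not tested, except that the last follow from gene length. Depth limits the lowest members: Tnni1 had at most 10 reads in a heart library, and 6 members were not tested in liver. Ribosomal RNA left some heart libraries with fewer protein-coding counts than others.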
